A study of Bos taurus with 33 samples.

Results

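The genes described are 9 members of the fibroblast growth factor (FGF) system, the ligand FGF2, the intracellular FGF-homologous factors FGF11 and FGF12, the receptors FGFR1, FGFR2 and FGFR3, and the Sprouty inhibitors SPRY1, SPRY2 and SPRY4. They were taken by symbol and Ensembl identifier and are 9 of the 17543 genes listed in the oocyte or the cumulus cell (CC) table. The group was chosen from values of these same pools, because the transcripts of FGF12, FGF2 and FGFR1 differed between follicle classifications. The class differences of these 3 genes are therefore given as a description without a test, and those of the other members were tested where they passed a filter on low levels, except FGF11 in CC for the reason given with its values. FGF2 carries no symbol in the CC table and was joined there by its identifier, ENSBTAG00000005691.

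Cumulus-oocyte complexes came from the pre-ovulatory follicle of suckled postpartum beef cows (Bos taurus) whose follicular growth was synchronised with gonadotropin releasing hormone (GnRH) and prostaglandin F2 alpha. Small follicles (up to 11.7 mm) and large follicles (from 12.7 mm) came from cows without estrus, in which a second GnRH dose induced the gonadotropin surge. Spontaneous follicles (11.7 to 14.0 mm) came from cows that showed estrus and generated their own surge, so that size class and the origin of the surge cannot be told apart in comparisons with them. Follicles were aspirated about 23 h after GnRH or estrus by the treatment protocol and about 20 h by the stage label. Each library held the oocytes, or the CC, of 4 complexes, with 6 small, 6 large and 4 spontaneous oocyte pools and 6 small, 6 large and 5 spontaneous CC pools. The paper describes the CC pools as those of the pooled oocytes, so pools of the cell types are not independent of each other.

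Secreted FGFs such as FGF2 bind heparan sulfate and the receptor tyrosine kinases FGFR1, FGFR2 and FGFR3, which signal through docking proteins to the RAS and MAP kinase cascade. Sprouty proteins are induced by this signalling and restrain it. FGF11 and FGF12 resemble FGFs in sequence but stay inside the cell, where they bind voltage-gated sodium channels, and are not thought to act as classical receptor ligands. In the ovary, FGFs pass between the oocyte and the somatic cells of the follicle and act on their growth, survival and metabolism.

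The unit is CPM, the reads of a gene per 1000000 reads on genes of the pool. Reads on genes numbered 7664375 to 17934916 in an oocyte pool and 1911600 to 5772431 in a CC pool, so that 3 reads, the most that a count of 0 allows, were worth up to 0.391 CPM in an oocyte pool and up to 1.57 CPM in a CC pool. These limits cover counting error only. The summed level of 10 oocyte markers was 7207 to 11208 CPM in oocyte pools. The 7 of them listed in the CC table summed to 47.7 to 354 CPM in CC pools, nearly all of it KIT, while ZP2 and ZP3 had medians of 0 in every CC class. The summed level of 12 cumulus and granulosa markers was at least 12450 CPM in every CC pool and 526 to 4064 CPM in oocyte pools. VCAN was the largest part of the oocyte sums by class medians, FSHR and FOXL2 had medians at or near 0 in every oocyte class, and HAS2 had higher medians in oocytes than in CC, so that the list did not move as a whole. A gene was tested where 5 CPM were reached by 4 or more pools of oocytes, or by 5 or more of CC. In oocytes 6 members passed this filter (FGF2, FGF12, FGFR1, FGFR2, SPRY1 and SPRY2) and in CC 8 members passed it, all but FGFR3.

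The members differed in the cell type that held them. SPRY1 transcripts were higher in the oocyte pools, although every CC pool had reads of them. FGF2, FGFR1, SPRY2 and SPRY4 had higher means in CC, and FGF12 and FGFR2 had higher means in oocytes. Of these genes, all but SPRY4 had reads in every pool of both cell types. The 2 tables were scaled separately, each pool to its own reads, so these levels are set side by side without a test, and in such bulk pools fewer cells of a type and less RNA per cell cannot be told apart. Levels of SPRY1 in oocyte pools lay between 90.3 and 235 CPM (mean 147 ± 39.9, SD, n = 16), and those in CC pools between 1.35 and 26.0 CPM (mean 10.3 ± 6.11, SD, n = 17). Every oocyte pool was thus above every CC pool. Of the 11431 genes listed in both tables and passing the filter in either, 22.9% showed this pattern and 13.4% the opposite one, every CC pool above every oocyte pool, so that separation of the cell types was common. SPRY1 was the only one of the 9 members without overlap between the cell types.

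SPRY2, the relative of SPRY1, had the reverse balance. It ranged from 51.8 to 111 CPM in CC pools (mean 75.1 ± 18.7, SD, n = 17) and from 9.92 to 64.4 CPM in oocyte pools (mean 27.1 ± 15.3, SD, n = 16), and the ranges overlapped. SPRY4 had no read in 13 of 16 oocyte pools and reached 0 to 10.1 CPM in CC pools (mean 5.55). The 3 Sprouty genes thus differed in their balance over the complex. SPRY1 was higher in the oocyte pools, and SPRY2 and SPRY4 had higher means in CC. SPRY1 and SPRY2 had reads in every pool of both cell types, whereas SPRY4 had reads in 16 of 17 CC pools.

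FGFR1 ranged from 14.6 to 53.4 CPM in CC pools (mean 30.5 ± 10.02, SD, n = 17) and from 1.18 to 17.5 CPM in oocyte pools (mean 6.84 ± 5.02, SD, n = 16). The ranges overlapped with CPM over all genes and no longer did once the 13 mitochondrially encoded genes were left out of the total. FGFR2 lay at 3.24 to 26.1 CPM in oocytes and overlapped with the 0.523 to 14.6 CPM of CC. FGFR3 had 1 read in 1 of the 16 oocyte pools and at most 5 reads in any CC pool, with no read in 13 of 17. At this depth FGFR3 was not reliably detected in either cell type.

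FGF2 ranged from 7.03 to 74.9 CPM in oocytes (mean 31.5), whereas CC pools reached from 23.6 to 250 CPM (mean 61.2). FGF12 ranged from 4.65 to 65.2 CPM and from 8.89 to 35.3 CPM in the same order. FGF11 had no read in 10 of 16 oocyte pools, whereas in CC pools it lay at 0 to 31.7 CPM with a median of 1.84 CPM. NUDT6, which overlaps FGF2 on the RefSeq map of bovine genes, was at 4.05 to 18.3 CPM in oocytes and 0 to 6.75 CPM in CC. As the library kits do not mark strand, reads in the shared stretch could not be assigned to a single gene. On that map SPRY1 overlaps the protein-coding LOC132342596 and FGFR2 the long non-coding LOC132343968. SPRY1 and FGF12 also each overlap a microRNA gene. The same limit holds for these shared stretches.

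**Figure D1:**
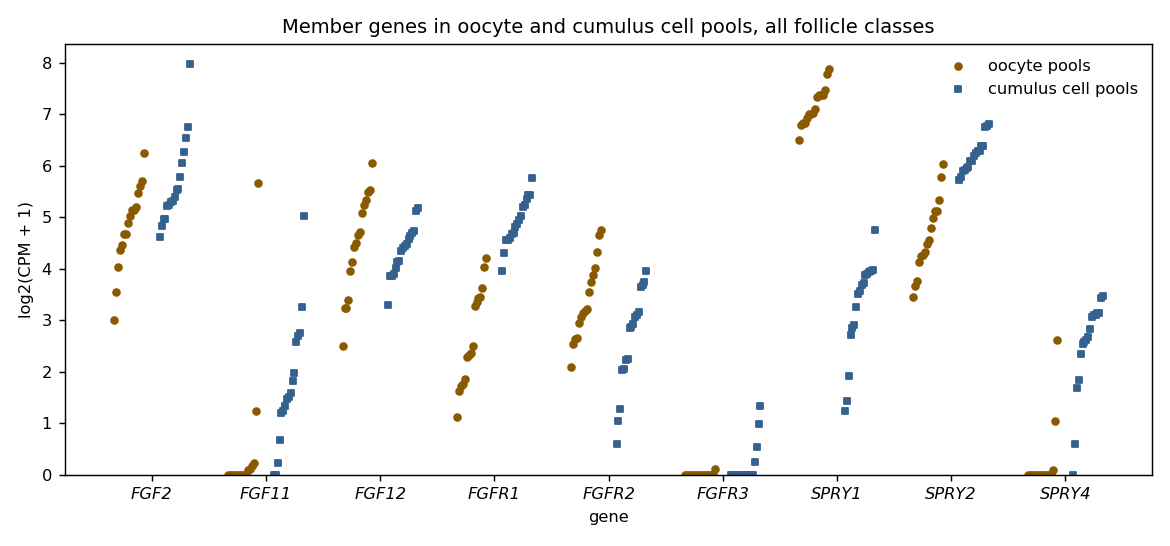
Level of each of the 9 members as log2(CPM + 1) in every oocyte pool (circles) and every cumulus cell pool (squares), sorted by level within each cell type and with the follicle classes together. SPRY1 is separated by cell type, with oocyte pools at 90.3 to 235 CPM and cumulus cell pools at 1.35 to 26.0 CPM, and FGFR3 lies near 0 in both.

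In oocytes, FGF12 was lower and FGFR1 higher in pools from large follicles than in those from small follicles, and these were the values that chose the group. FGF12 had its lowest level at 21.5, its median at 41.6 and its highest level at 65.2 CPM in small pools (mean 40.1 ± 15.7, SD, n = 6). In large pools it had its lowest level at 4.65, its median at 12.1 and its highest level at 20.6 CPM (mean 12.4 ± 5.90, SD, n = 6). The 2 classes did not overlap, and the mean was 3.23-fold higher in small pools, with a log2 fold change from small to large of -1.66 (SE 0.423).

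The 4 spontaneous pools held FGF12 at 24.4, 36.6, 33.1 and 8.42 CPM. They thus spanned both other classes, with spontaneous replicate 4 as low as the large pools and the other 3 within the small range. The log2 fold change to spontaneous was -0.71 (SE 0.457) from small and 0.95 (SE 0.546) from large pools. The 3 class comparisons of a cell type share pools, so these values are not independent of each other.

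FGFR1 had its lowest level at 1.18, its median at 3.97 and its highest level at 4.66 CPM in small oocyte pools (mean 3.34 ± 1.37, SD, n = 6). In large pools the lowest level was 8.73, the median 9.87 and the highest 17.5 CPM (mean 11.8 ± 3.73, SD, n = 6). Every large pool was above every small pool, and the mean was 3.53-fold higher, with a log2 fold change of 1.59 (SE 0.541). These levels rest on 16 to 57 reads per small pool and 108 to 207 reads per large pool.

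The spontaneous pools held FGFR1 at 2.66, 2.29, 11.3 and 2.40 CPM. Spontaneous replicate 3 stood with the large pools and the other 3 within the small range. The log2 fold change to spontaneous was 0.20 (SE 0.733) from small and -1.39 (SE 0.613) from large pools. Without replicate 3 these became -0.26 and -1.85.

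Because FGFR1 was more abundant in CC, the cumulus marker sums of the oocyte pools are given beside it. They were 737 to 4064 CPM in small and 526 to 3836 CPM in large oocyte pools, and so overlapped between the classes. The lowest sum of the large pools was in replicate 1, where FGFR1 stood at 9.95 CPM, and the highest in replicate 6, which also had the highest FGFR1 level, 17.5 CPM. The highest sum of the small pools was in replicate 3, where FGFR1 stood at 4.18 CPM. The spontaneous pools had sums of 1148, 2067, 2687 and 659 CPM, the highest of them in replicate 3, in which FGFR1 was also highest. The part of cumulus transcripts in the FGFR1 level was not tested.

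Among genes tested in oocytes from small and large follicles, 0.258% had pools that did not overlap between the classes, and 0.655% passed the nominal p of 0.01 or less in limma. The 2 of 6 members without overlap here, FGF12 and FGFR1, were chosen from this contrast, and nothing is read from their count.

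FGFR2, which was not used in the choice, had a higher mean in spontaneous than in small oocyte pools. In small pools the lowest level was 3.24, the median 5.27 and the highest 8.27 CPM (mean 5.83 ± 1.97, SD, n = 6). In large pools these were 6.71, 10.1 and 19.0 CPM (mean 11.2 ± 4.80, SD, n = 6). The spontaneous pools stood at 26.1, 24.4, 10.7 and 15.2 CPM (mean 19.1 ± 7.36, SD, n = 4).

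All 4 spontaneous pools lay above all 6 small pools, whereas large pools overlapped with both. The mean was 3.27-fold higher in spontaneous than in small pools. The log2 fold change was 1.53 (SE 0.612), which missed the nominal threshold in limma (adjusted p = 0.987 over 10076 genes). Beside a nominal limma p = 0.0187, an exact two-sided permutation test of the mean CPM gave p = 0.0095, the smallest that 6 against 4 pools can give. On the recovered reads FGFR2 passed the nominal threshold in DESeq2 (adjusted p = 0.562) and not in edgeR (adjusted p = 0.999).

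For FGFR2 the log2 fold change was 0.80 from small to large (SE 0.520, adjusted p = 0.997 in limma) and 0.73 from large to spontaneous (SE 0.528, adjusted p = 0.974). Neither met the threshold. The exact permutation test of the mean CPM gave p = 0.0216 from small to large and p = 0.0952 from large to spontaneous. Across genes 0.903% had non-overlapping pools between small and spontaneous oocytes and 0.774% passed limma's threshold, so that 1 of 3 tested members without overlap, chosen for mention after its values were seen, is set against that share. Between large and spontaneous oocytes 0.913% of genes did not overlap and 0.943% passed the threshold, whereas 0 of 6 members were without overlap and 0 of the 3 tested members passed.

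FGF2 in oocytes spread widely within each class. Its lowest level, median and highest level were 19.6, 26.6 and 47.7 CPM in small and 10.7, 32.97 and 51.6 CPM in large pools, and the spontaneous pools stood at 24.4, 35.6, 74.9 and 7.03 CPM. All 3 classes overlapped, with both the highest and the lowest pool among the spontaneous ones.

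**Figure D2:**
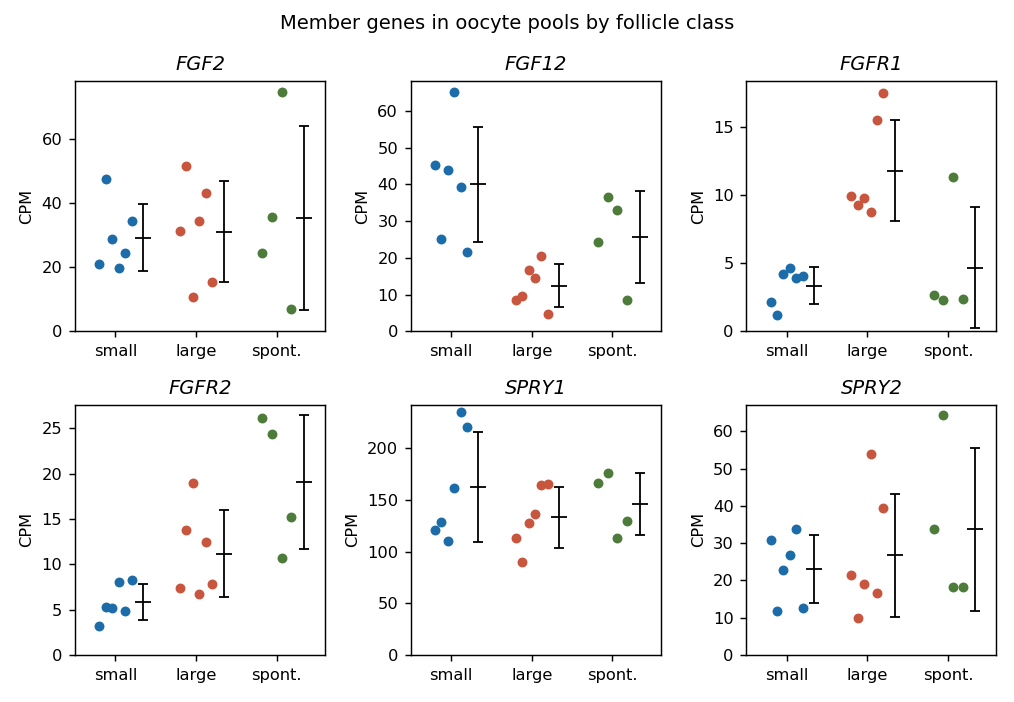
CPM of the 6 members that passed the filter in oocytes, with 1 point per pool of 4 oocytes, for small (n = 6), large (n = 6) and spontaneous (n = 4) follicles. Black bars give mean ± SD, and all axes start at 0. FGF12 at 4.65 to 20.6 CPM in large pools lies below the small pools, and FGFR1 at 8.73 to 17.5 CPM lies above them.

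SPRY1 was abundant in every oocyte pool. It had its lowest level at 110, its median at 145 and its highest level at 235 CPM in small pools and at 90.3, 132 and 166 CPM in large pools, and the spontaneous pools stood at 166, 176, 113 and 129 CPM. The classes overlapped throughout. SPRY2 lay at 11.7 to 33.8 CPM in small, 9.92 to 53.9 CPM in large and 18.1 to 64.4 CPM in spontaneous oocyte pools.

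Log2 fold changes of SPRY1 and SPRY2 between oocyte classes ran from -0.26 to 0.44, and the smallest p in limma was 0.237. Of the 3 members tested in each oocyte comparison, 0 passed the threshold of limma in any of the 3 comparisons. In limma 1, FGFR2, had an unadjusted p under 0.05, between small and spontaneous. Over all genes tested, 4.51% had an unadjusted p under 0.05 in that comparison, and nothing is read from 1 of 3. In edgeR 0 of the 3 members passed in any of the 3 comparisons.

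In CC, the FGF2 transcript was higher on average in spontaneous pools than in either induced class, which was among the values that chose the group. FGF2 had its lowest level at 27.3, its median at 35.7 and its highest level at 65.8 CPM in small pools (mean 41.4 ± 15.5, SD, n = 6) and at 23.6, 37.7 and 76.2 CPM in large pools (mean 42.8 ± 17.8, SD, n = 6). The 5 spontaneous pools stood at 92.6, 46.2, 107, 250 and 38.8 CPM (mean 107 ± 85.1, SD, n = 5).

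Of the spontaneous pools, 3 lay above every small and large pool and 2 lay within their range. For FGF2 the log2 fold change was 1.10 (SE 0.380) from small and 1.07 (SE 0.385) from large to spontaneous pools, and 0.03 (SE 0.280) from small to large. Spontaneous replicate 4 carried much of the mean. The ratio of means to small pools was 2.58 with it and 1.72 without it, and that to large pools 2.50 and 1.66.

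White blood cell and theca marker sums are given beside FGF2, whose sources in the follicle may include other cells. The 8 white blood cell markers summed to 17.5 to 68.5 CPM in small, 18.2 to 105 CPM in large and 32.9 to 122.9 CPM in spontaneous CC pools, with spontaneous replicate 4 at 56.4 CPM. The 3 theca markers summed to 1168 CPM in spontaneous replicate 4, the highest of the 17 pools, against 112 to 905 CPM in small and 197 to 564 CPM in large pools. Of that sum 1162 CPM were INSL3, a peptide hormone of theca cells, whereas CYP17A1, the androgen-forming enzyme of theca cells, did not exceed 0.781 CPM in any CC pool. The 6 markers of fibroblasts and stroma summed to 526 CPM in this pool, the lowest of the spontaneous pools, which reached 4115 CPM. They summed to 368 to 1465 CPM in small and 694 to 1446 CPM in large pools. The part of these cells in the FGF2 level was not tested.

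FGF11 was low in CC from small follicles and variable in the other classes. The small pools held it at 0 to 1.84 CPM with a median of 0.945 CPM, from at most 6 reads. The large pools held it at 5.79, 31.7, 1.78, 8.59, 0 and 2.94 CPM, and the spontaneous pools at 5.01, 1.37, 2.0, 2.54 and 5.51 CPM. Of the large pools, 4 lay above every small pool, 1 lay among them and 1 had no read, so that the classes overlapped.

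FGF11 passed the filter on 5 pools, all large or spontaneous, so a difference from small pools was built into its being tested. The study's account of these pools also names FGF11. Its log2 fold changes in limma, 1.59 from small to large (SE 0.673), 1.16 from small to spontaneous (SE 0.494) and -0.43 from large to spontaneous pools (SE 0.672), are therefore given as a description with no test. On the recovered reads the change from small to large was 3.15 in edgeR and 3.21 in DESeq2.

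In oocytes FGF11 stood at 50.1 CPM, 660 reads, in spontaneous replicate 3 and at 1.35 CPM or less in the other 15 pools. That was the oocyte pool in which FGFR1 and FGF2 were highest among the spontaneous ones.

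The receptors and FGF12 differed little between CC classes relative to their spread. FGFR1 had its lowest level, median and highest level at 14.6, 24.8 and 42.2 CPM in small and 18.8, 30.7 and 53.4 CPM in large pools, and the spontaneous pools stood at 39.9, 42.3, 27.2, 23.2 and 36.8 CPM. FGF12 gave 8.89, 19.7 and 25.8 CPM in small and 13.5, 19.6 and 33.9 CPM in large pools, and 35.3, 16.6, 23.1, 20.7 and 16.8 CPM in spontaneous pools. Both genes overlapped between all CC classes, and of all genes tested in CC only 0.247% were without overlap between small and large pools. Their separation of small and large oocyte pools was among the values that chose the group, so no contrast is read from it. Whether the class difference itself differed between the cell types was not tested.

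FGFR2 was low in CC, with means of 6.97 ± 5.57 (SD, n = 6), 5.21 ± 4.08 (SD, n = 6) and 7.24 ± 3.02 CPM (SD, n = 5) in small, large and spontaneous pools. SPRY1 in CC had means of 8.90 ± 5.58, 10.95 ± 8.73 and 11.2 ± 3.22 CPM (SD) in the same order. SPRY2 had means of 83.0 ± 22.03, 75.4 ± 18.6 and 65.2 ± 12.1 CPM, and SPRY4 of 5.31 ± 3.38, 5.94 ± 3.47 and 5.35 ± 2.39 CPM. Log2 fold changes of the 3 Sprouty genes between CC classes lay between -0.32 and 0.54, and the smallest p in limma was 0.136.

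**Figure D3:**
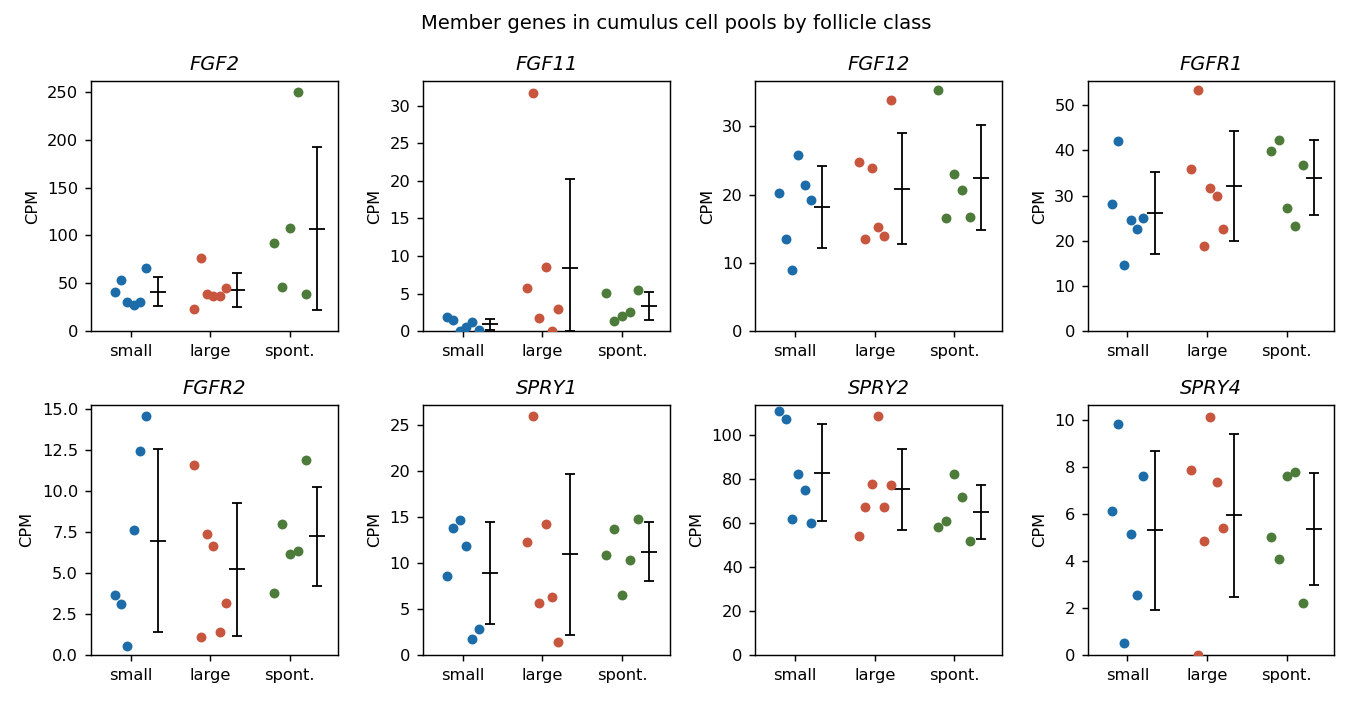
CPM of the 8 members that passed the filter in cumulus cells, with 1 point per pool, for small (n = 6), large (n = 6) and spontaneous (n = 5) follicles. Black bars give mean ± SD, with lower ends stopped at 0 where the SD exceeds the mean, and all axes start at 0. FGF2 reaches 250 CPM in 1 spontaneous pool and FGF11 31.7 CPM in 1 large pool.

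Of the 4 other members tested in CC, FGFR2 and the 3 Sprouty genes, 0 passed the threshold in limma, edgeR or DESeq2 in any of the 3 comparisons, and 0 had an unadjusted p under 0.05 in limma. Over all genes 4.0% had an unadjusted p under 0.05 between small and large CC pools. This share was 8.55% between small and spontaneous and 7.07% between large and spontaneous CC pools. Limma's threshold was passed by 0.813% of genes between small and large, by 2.38% between small and spontaneous and by 1.66% between large and spontaneous CC pools. Pools without overlap were seen for 0.247%, 1.16% and 0.865% of genes in the same order, and for 0 of the 8 members. The median log2 fold change of all genes from small to spontaneous CC pools was 0.16, and the member values of this comparison are to be read relative to it.

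**Figure D4:**
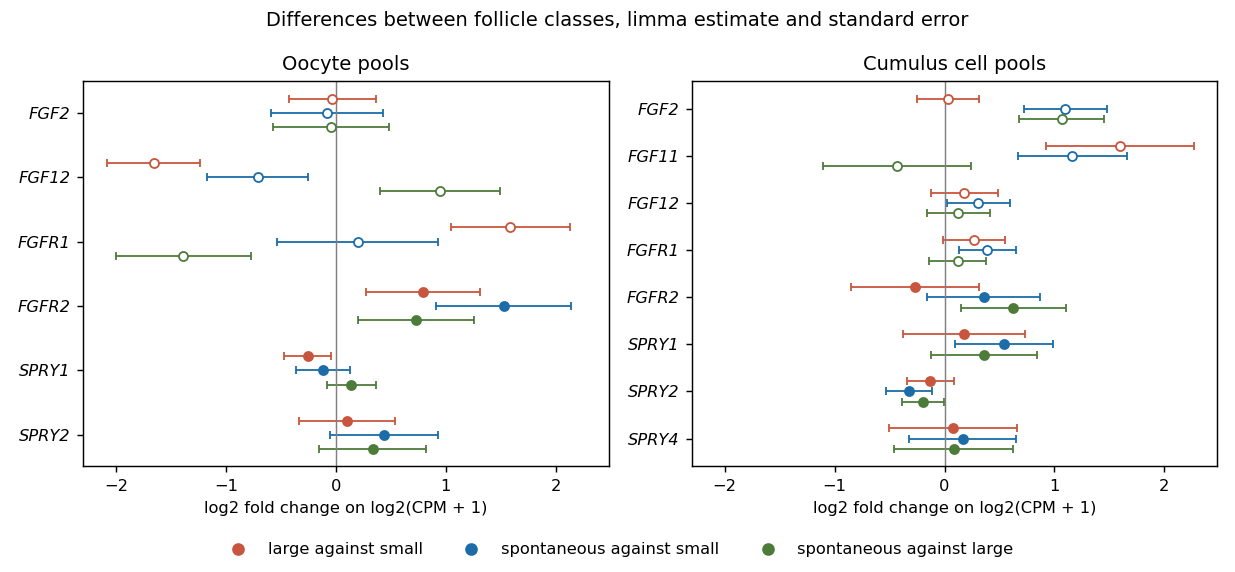
Log2 fold changes of the members between follicle classes on the log2(CPM + 1) scale in oocyte pools (left) and cumulus cell pools (right), as limma estimates with standard errors. Filled points were tested. Open points, the genes that chose the group and FGF11 in cumulus cells, are given without a test. The largest differences are those of FGF12 (-1.66) and FGFR1 (1.59) in oocytes from large against small follicles, FGFR2 (1.53) in oocytes from spontaneous against small follicles and FGF11 (1.59) in cumulus cells from large against small follicles.

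No relation between the levels of the 3 Sprouty genes had an adjusted permutation p under 0.05. Over 16 oocyte pools, SPRY1 and SPRY2 had a Pearson r = 0.36 (permutation p = 0.172, adjusted 0.487 over 6 relations) and a Spearman rho = 0.44 (permutation p = 0.0916, adjusted 0.385). Without the 2 pools farthest from the SPRY1 median, r was 0.62 (permutation p = 0.0181, adjusted 0.108). The 2 oocyte relations with SPRY4, r = 0.04 and 0.10 (rho = -0.24 and -0.21), rest on the 3 pools in which SPRY4 had a read.

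Over 17 CC pools, r was -0.05 for SPRY1 with SPRY2, -0.30 for SPRY1 with SPRY4 and 0.39 for SPRY2 with SPRY4. Spearman's rho was -0.21, -0.19 and 0.38 in the same order. The smallest adjusted permutation p of these 3 relations was 0.487 for r and 0.385 for rho. Without the 2 farthest pools r became -0.00, -0.55 and 0.30, with adjusted permutation p-values of 0.993, 0.119 and 0.539.

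The genes most like FGF12 over the 16 oocyte pools, of 10076 genes and by Spearman's rho, were SIN3B (0.82), YARS (0.79) and HERC4 (0.77). YARS, a tyrosyl-tRNA synthetase, had medians of 7.21, 0.721 and 2.74 CPM in small, large and spontaneous pools. Those most like FGF2 over the 17 CC pools, of 9712 genes, were LRRN3 (0.81), MFHAS1 (0.78) and ADAT1 (0.77). No other member was close to either gene, with rho between FGF12 and the other members in oocytes from -0.49 for FGFR1 to 0.18 for SPRY2, and between FGF2 and the others in CC from -0.23 to 0.28. These are descriptions over pools that share their scaling, and the genes at the top of so many are close in part by selection.

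The rest of the FGF system was read from a list of 71 genes, of which 63 were listed in a table, 37 passed the filter in oocytes and 40 in CC. Of 17 further secreted ligands, 2 passed it in oocytes and 0 in CC. FGF16 was at 21.7 to 76.8 CPM and FGF19, an endocrine FGF, at 3.33 to 64.5 CPM in oocyte pools, and neither gene is listed in the CC table used here. Among co-receptors, KLB, which FGF19 signalling uses, passed only in oocytes with a mean of 5.18 CPM, against 0.639 CPM in CC. FLRT2, a transmembrane protein that binds FGF receptors, lay at 47.4 to 210 CPM in CC pools and 0.243 to 45.1 CPM in oocyte pools.

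Of the 10 adaptors and effectors, all passed in both cell types. Every oocyte pool was above every CC pool for FRS3, SHC1, PLCG1 and CBL, and every CC pool was above every oocyte pool for 0 of the 10. Over all genes these shares were 22.9% and 13.4%, and nothing particular to adaptors is read from the counts. SHC1, an adaptor between receptors and RAS, had means of 403 CPM in oocytes and 58.9 CPM in CC. CBL, a ubiquitin ligase that removes activated receptors, had means of 232 and 24.5 CPM.

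In the kinase cascade, ARAF was higher in every CC pool, with means of 406 CPM in CC and 17.5 CPM in oocytes. Of the 6 transcriptional targets, 2 were higher in every oocyte pool, 2 were higher in every CC pool and 2, ETV4 and MYC, overlapped. ETV5 ranged from 32.0 to 199 CPM in oocytes and from 1.42 to 9.85 CPM in CC, and ETV1 from 16.3 to 125 and from 0 to 9.27 CPM. The immediate early genes EGR1 and FOS ran the other way, EGR1 at 149 to 801 CPM in CC and 6.87 to 102 CPM in oocytes and FOS at 76.9 to 264 CPM and 0 to 13.3 CPM. In all, 9 pathway genes had every oocyte pool above every CC pool, 5 had the reverse and 30 overlapped, beside the shares of 22.9% and 13.4% over all genes.

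In oocytes 0 of 37 passed limma's threshold in each of the 3 comparisons, 0, 0 and 1 had an unadjusted p under 0.05 in the comparisons of small with large, small with spontaneous and large with spontaneous pools, and 0 passed in edgeR and in DESeq2. Over all genes 4.11%, 4.51% and 4.87% had an unadjusted p under 0.05 in the same order. Their median log2 fold changes were 0.20, 0.03 and -0.04, against 0.05, 0.05 and 0.01 over all genes tested.

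In CC, 1 of 40 passed between small and large, 1 between small and spontaneous and 0 between large and spontaneous pools, and 2, 5 and 3 had an unadjusted p under 0.05. Over all genes tested in CC, 0.813%, 2.38% and 1.66% passed and 4.0%, 8.55% and 7.07% had an unadjusted p under 0.05 in the same order, and nothing particular to the list is read from these counts. The medians were 0.28 against 0.16 over all genes from small to spontaneous, 0.10 against 0.05 from small to large and 0.11 against 0.11 from large to spontaneous. FLRT2 had a mean of 87.6 ± 38.5 CPM (SD, n = 6) in small, 150 ± 42.8 CPM (SD, n = 6) in large and 99.3 ± 16.9 CPM (SD, n = 5) in spontaneous pools. It rose from small to large by limma's nominal threshold, with a log2 fold change of 0.83 (SE 0.262, adjusted p = 0.999), and the exact permutation p was 0.0260. In edgeR and DESeq2 that comparison missed the nominal threshold, whereas both passed it for FLRT2 being lower in spontaneous than in large pools (adjusted p = 0.762 and 0.285), where limma gave -0.56 and missed it (adjusted p = 0.583).

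MAP2K1, a kinase of the MAP kinase cascade, had means of 86.1 ± 17.3 CPM (SD, n = 6) in small and 126 ± 25.0 CPM (SD, n = 5) in spontaneous CC pools. It rose from small to spontaneous by limma's nominal threshold, with a log2 fold change of 0.55 (SE 0.187, adjusted p = 0.418), against a median of 0.16 over all genes, and the exact permutation p was 0.0216. EdgeR and DESeq2 gave 0.40 and 0.39, outside the nominal threshold (adjusted p = 0.762 and 0.707). The Sprouty relative SPRED2 and the phosphatase DUSP6, both feedback inhibitors, were detected in both cell types, and 0 of the 4 feedback inhibitors tested in each cell type passed in any limma comparison.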

How the data were processed

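The authors amplified total RNA of each pool to cDNA, sequenced it from one end, used Hisat2 for alignment to the UMD3.1 genome and featureCounts for counts per Ensembl gene, and deposited CPM, 1 table per cell type. Whole reads, within 0.02 of a read, were recovered from 100% of the CPM values of each pool.

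CPM were tested between 2 classes at a time with limma 3.58.1 (R 4.3.3) on log2(CPM + 1), two-sided with a mean-variance trend, over all genes with at least 5 CPM in 4 oocyte or 5 CC pools. The threshold was a nominal p of 0.01 or less, also without small replicate 3 in oocyte comparisons with small pools, and Benjamini-Hochberg adjusted p-values stand beside it. EdgeR 4.0.16 and DESeq2 1.42.0 on the recovered reads, a pseudocount of 0.1, no filter, median-of-ratios scaling, CPM without mitochondrially encoded genes, 1 fit over 3 classes, a replicate block and each pool left out in turn were the alternatives. Correlations used 100000 permutations. The tests were tried on simulated data.

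The members and lists were chosen with earlier results of these data known. All 9 members are named, with pathway genes past the threshold and the 3 genes most like FGF12 and FGF2. Other pathway genes were named after their values were seen. No 2 pools were alike within counting error (chi-square per degree of freedom at least 13.4). Each pool joins 4 complexes, and p-values measure the spread between pools. No sequences or coordinates of UMD3.1 were used here. The values of 1 gene of the pathway list are not reported here.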

Additional observations from a re-analysis of the deposited data

Results flagged for a closer look

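Within groups of 4 to 10 pools, 9 of 51 member groups held a pool set apart from the others by Dixon's test at the 95% level. The nominal rate of about 1 in 20 does not hold for groups in which most pools have no read, so nothing is read from this count. The 4 that rest on more than 5 reads and stand high are FGF11 in oocyte spontaneous replicate 3 (50.1 CPM, 660 reads), in CC large replicate 2 (31.7 CPM, 89 reads) and in oocyte large replicate 2 (1.35 CPM, 19 reads), and FGFR1 in oocyte spontaneous replicate 3 (11.3 CPM, 149 reads). The FGF11 and FGFR1 levels set apart in oocyte spontaneous replicate 3 belong to 1 library, whose cumulus marker sum of 2687 CPM was the highest of the 4 spontaneous oocyte pools (1148, 2067, 2687 and 659 CPM). Oocyte small replicate 3, large replicate 4 and large replicate 6 had higher sums, 4064, 3235 and 3836 CPM. In the same order these pools held FGF11 at 0.130, 0 and 0.0845 CPM and FGFR1 at 4.18, 8.73 and 17.5 CPM. The part of cumulus transcripts in these levels was not tested.

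The other 5 rest on 5 reads or fewer, in groups whose remaining pools had no read, so that any read set a pool apart. They are FGF11 in oocyte small replicate 3 (0.130 CPM), FGFR3 in oocyte small replicate 6 (0.0861 CPM), in CC small replicate 1 (1.53 CPM) and in CC spontaneous replicate 3 (0.182 CPM), and SPRY4 in oocyte large replicate 2 (0.0708 CPM).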

How the results depend on the processing

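Log2 fold changes of FGF12 and FGFR1 between small and large oocytes were -1.82 to -1.43 and 1.40 to 1.87 over the alternative fits. These values chose the group and their pools do not overlap, so that their direction was fixed by the choice. Tested members past the threshold, 0 in every main comparison, became 1 for oocytes from small to spontaneous in DESeq2 (FGFR2), for CC from small to large in edgeR and DESeq2 (0 to 1 leaving out each pool, FGF11) and for CC from small to spontaneous with no filter (FGF11). Nothing is read from the FGF11 calls, as the gene passed the filter only through large and spontaneous pools. In 18 other tested member comparisons, 32 of 344 alternative fits changed sign and 0 passed the threshold. Leaving out a large or spontaneous pool with 5 CPM or more removed FGF11 from the genes tested.

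Pathway genes past the threshold in oocytes stayed at 0. In CC from small to large the count of 1 became 0 with median-of-ratios scaling, without mitochondrially encoded genes, in edgeR and in DESeq2 (0 to 2 leaving out each pool). From small to spontaneous it became 0 with median-of-ratios scaling, without mitochondrially encoded genes, in 1 fit over 3 classes and in edgeR, and 2 with no filter (0 to 3 leaving out each pool). MAP2K1, the gene of the main fit, also missed the threshold in DESeq2, so the count alone does not show which gene was called. From large to spontaneous the 0 became 1, FLRT2, with median-of-ratios scaling, without mitochondrially encoded genes, in edgeR and in DESeq2 (0 to 2 leaving out each pool). The causes were not tested.

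With the replicate block the count of pathway genes in CC from small to spontaneous was 2 and no other count of calls changed. Within a cell type, the deviations of pools of different classes with the same number correlated at -0.19 to 0.22, and 4 of 30 pairs were above 0.1. Pairing of oocyte with CC pools was not examined. Members without overlap between cell types were 1 and became 2 without mitochondrially encoded genes (FGFR1). Sprouty relations that changed sign, none past the threshold, were SPRY1 with SPRY4 in oocytes with a pseudocount of 0.1 (r = -0.047), SPRY2 with SPRY4 in oocytes centred on class means (r = -0.047), and SPRY1 with SPRY2 in CC with median-of-ratios scaling (r = 0.023) and centred on class means (r = 0.045). Depth limits FGF11, FGFR3 and SPRY4, whose levels rest on few reads in most pools.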
